A study of Homo sapiens with 28 samples.

Results

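MEIS1 and PBX3, the homeodomain partners of the HOXA proteins, were followed in 7 acute myeloid leukaemia (AML) cell lines treated with a DNMT1 inhibitor. The set was defined by name as HOXA3, HOXA5, HOXA7, HOXA9, HOXA10, MEIS1 and PBX3, 7 genes. Every probe set annotated to a member alone was taken. Probe sets annotated to several genes together were left out, whether or not they name a member. The platform annotation used here gave 2 probe sets for MEIS1 (204069_at and 1559477_s_at) and 1 for PBX3 (204082_at), so that 3 of 27306 probe sets and 2 of the 7 genes are described. The 5 HOXA genes were not analysed here, and for the HOXA cluster only non-coding neighbours are given. Each of the 7 lines received GSK3484862 at 1 µM, which inhibits DNMT1, or the vehicle DMSO at 0.1%, for 96 h. RNA was measured on Affymetrix U133 Plus 2.0 arrays in biological duplicate, which gave 14 groups of 2 and 28 arrays. MOLM13, THP1 and NOMO1 carry a KMT2A-MLLT3 fusion and SHI1 a KMT2A-AFDN fusion, and these 4 are called KMT2A-rearranged. The other lines were GDM1, SKM1 and SKNO1, the last with a RUNX1-RUNX1T1 fusion. The fusions are background knowledge of these established lines and do not stand in the sample labels, and each line is a single leukaemia, so that lines, not arrays, are the replicates of a genotype.

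KMT2A encodes a histone methyltransferase that keeps HOX genes on in blood stem and progenitor cells. When a chromosomal break joins it to a partner such as MLLT3 or AFDN, the fusion protein recruits elongation factors and the DOT1L methyltransferase to the HOXA cluster and to MEIS1 and holds them at a high level. MEIS1 and PBX3 belong to the TALE class of homeodomain proteins, which bind DNA together with HOX proteins, and HOXA9 with MEIS1 is a classical transforming pair in mouse bone marrow. DNMT1, the maintenance DNA methyltransferase, copies CpG methylation onto the new strand after replication, and its inhibitor lowers methylation as cells divide.

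The promoter windows of both genes are shown because CpG dinucleotides, the sites that DNMT1 methylates, are capitalised in them. Each is the 300-base window that the RefSeq promoter table holds for the gene on GRCh38.p14, 5′ to 3′ on the plus strand. The MEIS1 window lies at chr2:66434875-66435174 and the PBX3 window at chr9:125747933-125748232, which is inside the annotated PBX3 gene, downstream of its outermost start.
MEIS1: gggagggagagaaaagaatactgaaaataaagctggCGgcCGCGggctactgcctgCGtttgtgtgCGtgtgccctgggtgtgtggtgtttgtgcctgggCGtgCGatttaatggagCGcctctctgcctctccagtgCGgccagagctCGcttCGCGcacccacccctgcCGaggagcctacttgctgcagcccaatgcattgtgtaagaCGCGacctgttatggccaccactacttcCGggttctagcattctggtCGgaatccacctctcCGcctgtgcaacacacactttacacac
PBX3: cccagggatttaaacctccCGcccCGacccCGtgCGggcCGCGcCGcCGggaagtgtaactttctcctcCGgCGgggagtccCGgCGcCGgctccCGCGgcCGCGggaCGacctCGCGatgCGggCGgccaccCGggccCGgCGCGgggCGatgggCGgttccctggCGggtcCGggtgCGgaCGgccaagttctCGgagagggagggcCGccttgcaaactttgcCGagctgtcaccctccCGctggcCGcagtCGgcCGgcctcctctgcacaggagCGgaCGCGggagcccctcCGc
The MEIS1 window held 18 CpG and 58.3% G or C, and the PBX3 window 43 CpG and 76.0% G or C. Over 35116 RefSeq promoters of the same length the median was 14 CpG, 44.5% had at least as many as MEIS1 and 4.98% at least as many as PBX3. Both strands were searched for TGATTNAT, a pairing of PBX with HOX half-sites, and for TGACAG, the MEIS half-site, neither of which contains the other. TGATTNAT was in neither window and in 2.82% of all promoters. TGACAG matched 1 time in the PBX3 window, was not found in the MEIS1 window, and was in 15.8% of all promoters. Methylation itself was not measured.

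All values below are log2 probe set signals as the authors deposited them, and a change is GSK3484862 minus DMSO on that scale. A probe set was called at an adjusted p under 0.05 (limma with Benjamini-Hochberg adjustment over all 27306 probe sets). Array medians ran from 8.33 to 8.51 and duplicates correlated at r = 0.991 to 0.997 across probe sets, which are not independent replicates. The number of arrays limits the precision. The leukocyte gene PTPRC had group means of 11.2 to 13.5 and the myeloid factor SPI1 8.89 to 10.4, so both were present in every group. Some other myeloid markers were not, with lowest group means of 2.17 for ELANE and 2.13 for CD14. In DMSO the mean over 12 myeloid markers was lowest in GDM1, at 7.54, followed by SKNO1 at 9.72. Of 8 T cell markers listed only CD3D was measured, and of 6 B cell markers 3. CD3D reached 14.59 in DMSO-treated GDM1, where the mean over the 3 B cell markers was also highest, at 7.83. Under DMSO CD3D had 9.16 in MOLM13, 8.18 in NOMO1 and 3.78 to 6.27 in the remaining lines. DNMT1, the enzyme inhibited, was called lower on average, by a small change of -0.093 ± 0.028 (SE, adjusted p = 0.0136, limma). GDM1 was the only line in which it was called, at -0.48 ± 0.075 (SE, limma adjusted p = 0.000148), its changes differed between lines (F-test, limma adjusted p = 0.00972), and without GDM1 their mean was -0.029.

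MEIS1 was either strongly present or at the lowest values of its probe set. In DMSO the first probe set, 204069_at, gave 10.81 and 10.87 in SHI1, 10.51 and 10.59 in MOLM13, and 10.24 and 10.33 in NOMO1. THP1, the remaining KMT2A-rearranged line, gave 2.13 on both arrays. Outside the KMT2A-rearranged lines GDM1 gave 10.58 and 10.84, while SKM1 stood at 2.76 on both arrays and SKNO1 at 2.76 and 2.13. The value 2.13 was repeated in 7 arrays and 2.76 in 4, and such repeated lowest values have no order among themselves. High levels were thus found in 4 lines, SHI1, GDM1, MOLM13 and NOMO1 in falling order, with SHI1 and GDM1, and GDM1 and MOLM13, overlapping in their arrays. NOMO1 lay 0.26 below MOLM13, against an SD between duplicates of 0.148. That SD is pooled over the 14 groups, and the SKNO1 DMSO pair, at repeated lowest values, had the widest spread (SD 0.447). The DMSO pairs of MOLM13 and NOMO1 had SDs of 0.053 and 0.062.

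The second MEIS1 probe set, 1559477_s_at, split the lines in the same way. It gave 9.52 and 9.12 in SHI1, 9.12 and 9.10 in MOLM13, 8.99 and 9.13 in NOMO1, and 8.66 and 8.74 in GDM1 under DMSO. SKM1 and THP1 stood at 2.15 on all 4 DMSO arrays and SKNO1 at 3.07 and 2.40. The value 2.15 was shared by 9 of the 28 arrays. SHI1, MOLM13 and NOMO1 were close, with steps of 0.21 and 0.047 against an SD between duplicates of 0.157, and GDM1 was 0.36 below NOMO1. The SKNO1 DMSO pair again had the widest spread (SD 0.468). The SE of each MEIS1 change within a line rests on this pooled spread, on both probe sets.

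PBX3 was graded over 6 lines and stood at its lowest value in SKNO1. Its DMSO signals were 12.21 and 12.33 in THP1, 11.60 and 11.54 in SHI1, 11.38 and 11.55 in MOLM13, and 10.82 and 10.87 in NOMO1. GDM1 followed with 9.71 and 9.84 and SKM1 with 9.34 and 9.42, and all 4 SKNO1 arrays, treated or not, had the repeated lowest value of 2.80. Only SHI1 and MOLM13 overlapped. The other steps, from 0.39 (GDM1 to SKM1) to 6.58 (SKM1 to SKNO1), exceeded the SD between duplicates of 0.0720.

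**Figure D1:**
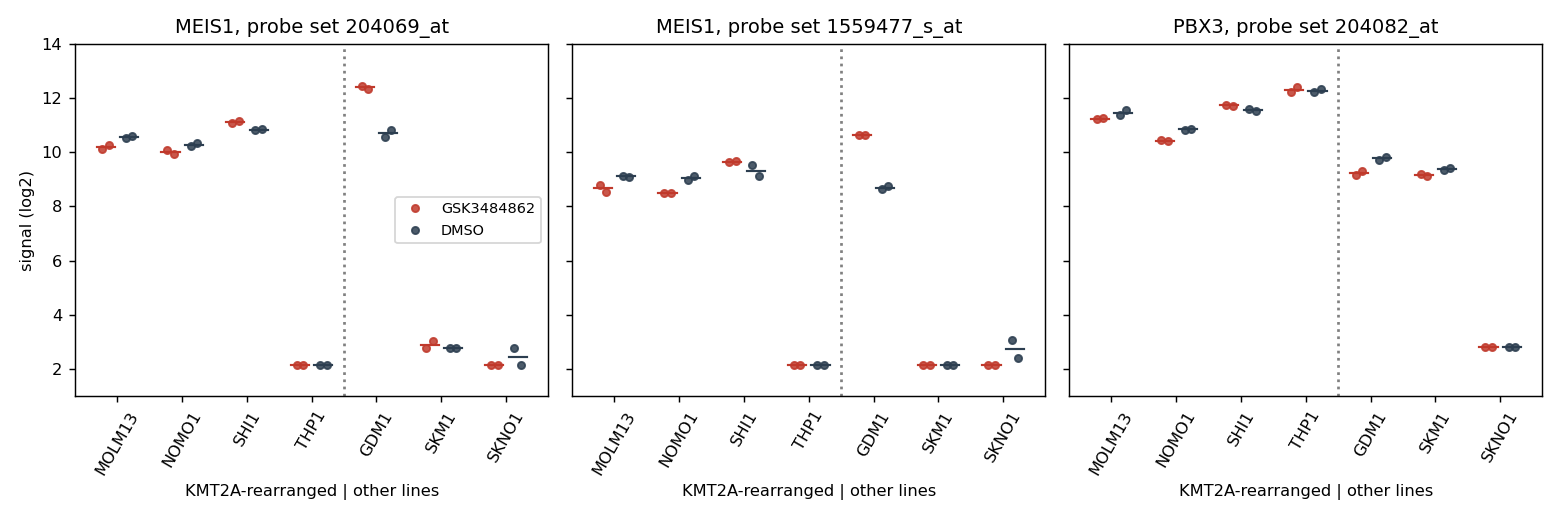
Log2 signal of the 3 probe sets in each array, with the 4 KMT2A-rearranged lines left of the dotted line and the 3 others right of it; points are arrays (GSK3484862 red, DMSO dark) and bars the means of 2 arrays. MEIS1 was high in 4 lines and at the lowest values in THP1, SKM1 and SKNO1, and PBX3 was at 2.80 in SKNO1.

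The level comparison asked whether KMT2A-rearranged lines carried more MEIS1 and PBX3 before treatment, with the line as the unit. PBX3 averaged 11.54 ± 0.58 in the 4 KMT2A-rearranged lines and 7.32 ± 3.92 in the 3 others (SD over lines). Each KMT2A-rearranged line was above each other line, an order shown by 3.15% of all probe sets. The difference was 4.22 ± 1.66 (SE) with an unadjusted limma p of 0.0399 and an adjusted p of 0.743. The exact two-sided permutation test over lines gave p = 0.0571, the smallest that 4 against 3 lines allow. SKNO1 set much of the size: without it the difference was 1.96 ± 0.44 (limma adjusted p = 0.556), and among GSK3484862 arrays it was 4.36. In bulk RNA, fewer cells that express a gene and less RNA per cell cannot be told apart.

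MEIS1 overlapped between the line classes on both probe sets, with THP1 low in one class and GDM1 high in the other. The first probe set averaged 8.45 ± 4.22 in KMT2A-rearranged lines and 5.31 ± 4.68 in the others (SD, n = 4 and 3), a difference of 3.14 ± 2.90 (SE, limma adjusted p = 0.808, exact permutation p = 0.686). On the second probe set the averages were 7.41 ± 3.51 and 4.53 ± 3.62 in the same order, a difference of 2.88 ± 2.34 (SE, limma adjusted p = 0.786, exact permutation p = 0.343). None of the 3 probe sets was called, and over the whole table the comparison called 0.00732% of probe sets higher and 0.0330% lower. At an unadjusted p under 0.05 it held 6.57% of probe sets, PBX3 among them.

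The response asked how GSK3484862 moved each gene. In GDM1 both MEIS1 probe sets rose and PBX3 fell. In NOMO1 PBX3 and 1 of the MEIS1 probe sets fell. No change in THP1, SKM1, SHI1 or MOLM13 was called, and the only other call was in SKNO1 at the lowest values of a MEIS1 probe set. In GDM1 the first MEIS1 probe set had 12.45 and 12.34 in GSK3484862 arrays, against 10.58 and 10.84 in DMSO arrays. The second had 10.65 and 10.64 in GSK3484862 arrays and 8.66 and 8.74 in DMSO arrays. Treated and control arrays were far apart on both, and the treated GDM1 signal was the highest of the 28 arrays on each probe set. The changes were 1.68 ± 0.15 (3.21-fold, 95% interval 1.38 to 1.99, adjusted p = 3.59e-07) and 1.95 ± 0.15 (3.85-fold, 95% interval 1.62 to 2.27, adjusted p = 1.46e-07; SE, limma). In GDM1 280 probe sets rose more than the first and 202 more than the second, of 27306. The inhibitor called 10.4% of all probe sets higher and 15.5% lower in this line. Of 12 myeloid marker genes measured, 3 were called higher and 0 lower in GDM1, and the mean of the list was 7.89 in GSK3484862 arrays and 7.54 in DMSO arrays; their part in the MEIS1 rise was not tested.

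PBX3 went the other way in GDM1. It had 9.16 and 9.31 in GSK3484862 arrays and 9.71 and 9.84 in DMSO arrays, with no overlap. The change was -0.54 ± 0.084 (SE, 1.46-fold lower, limma adjusted p = 0.000134). Fitted on the 4 GDM1 arrays alone, both MEIS1 rises were called (adjusted p = 0.0337 and 0.0335) and the PBX3 fall was not (adjusted p = 0.0622, limma).

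In NOMO1, PBX3 had 10.45 and 10.41 in GSK3484862 arrays and 10.82 and 10.87 in DMSO arrays, a change of -0.41 ± 0.084 (SE, 1.33-fold lower, limma adjusted p = 0.00649). The second MEIS1 probe set had 8.50 and 8.48 in GSK3484862 arrays and 8.99 and 9.13 in DMSO arrays, a change of -0.57 ± 0.15 (SE, 1.48-fold lower, limma adjusted p = 0.0348). The treated arrays were below the control arrays on both. On the first MEIS1 probe set they were too, with 10.08 and 9.95 in GSK3484862 arrays and 10.24 and 10.33 in DMSO arrays, but the change of -0.27 ± 0.15 was not called (limma adjusted p = 0.322). NOMO1 had 2.43% of all probe sets called higher and 4.46% lower. On the 4 NOMO1 arrays alone neither fall was called (limma adjusted p = 0.159 for PBX3 and 0.163 for the second MEIS1 probe set). The MEIS1 call was also lost with quantile normalization, median centring, robust variances or array weights (limma adjusted p = 0.0568 to 0.0773).

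MOLM13, also KMT2A-rearranged, had lower treated arrays on all 3 probe sets. The first MEIS1 probe set had 10.13 and 10.26 in GSK3484862 arrays and 10.51 and 10.59 in DMSO arrays, the second 8.80 and 8.55 in GSK3484862 arrays and 9.12 and 9.10 in DMSO arrays. PBX3 had 11.21 and 11.28 in GSK3484862 arrays and 11.38 and 11.55 in DMSO arrays. The groups did not overlap, yet the changes of -0.35, -0.43 and -0.22 missed the threshold (limma adjusted p = 0.106, 0.0564 and 0.0794). With the spread taken from lines that had signal, a setting chosen after the data were seen, both MEIS1 changes in MOLM13 were called (limma adjusted p = 0.0261 and 0.0314). With dim probe sets left out, PBX3 and the second MEIS1 probe set were called too (limma adjusted p = 0.0488 and 0.0388). MOLM13 had 9.65% of all probe sets called higher and 11.5% lower, and 6 of the 12 myeloid markers called higher, with a list mean of 11.7 in GSK3484862 arrays and 10.8 in DMSO arrays; their part in these values was not tested.

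SHI1 had the opposite sign on each probe set and none was called. The first MEIS1 probe set had 11.08 and 11.15 in GSK3484862 arrays and 10.81 and 10.87 in DMSO arrays, a change of 0.27 ± 0.15 (SE, limma adjusted p = 0.516). The second had 9.65 and 9.66 in GSK3484862 arrays and 9.52 and 9.12 in DMSO arrays (0.33 ± 0.15, limma adjusted p = 0.417), and PBX3 11.74 and 11.72 in GSK3484862 arrays and 11.60 and 11.54 in DMSO arrays (0.16 ± 0.084, limma adjusted p = 0.517). SHI1 changed little as a whole, with 1.53% of probe sets called higher and 0.524% lower.

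In THP1, MEIS1 stayed at the lowest values, at 2.13 on all 4 arrays of the first probe set and at 2.13 and 2.15 in GSK3484862 arrays and 2.15 and 2.15 in DMSO arrays of the second. PBX3 in THP1 had 12.21 and 12.42 in GSK3484862 arrays and 12.21 and 12.33 in DMSO arrays, a change of 0.048 ± 0.084 (SE, 95% interval -0.13 to 0.23). SKM1 also kept MEIS1 at the lowest values, with 2.76 and 3.04 in GSK3484862 arrays and 2.76 on both DMSO arrays of the first probe set and 2.15 throughout on the second. PBX3 in SKM1 had 9.22 and 9.14 in GSK3484862 arrays and 9.34 and 9.42 in DMSO arrays (-0.21 ± 0.084, limma adjusted p = 0.100). Treatment thus brought MEIS1 signal to neither line, where 3.60% (THP1) and 9.69% (SKM1) of all probe sets were called higher and 5.61% (THP1) and 10.3% (SKM1) lower.

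SKNO1 had MEIS1 at 2.13 on both GSK3484862 arrays and at 2.76 and 2.13 on DMSO arrays of the first probe set. The second had 2.15 on both GSK3484862 arrays and 3.07 and 2.40 on DMSO arrays, and its change of -0.58 ± 0.15 was called (SE, limma adjusted p = 0.0473, against 1.77% of probe sets called lower in SKNO1). Those values lay at or next to the lowest of the probe set, and the call was lost on the 4 SKNO1 arrays alone (limma adjusted p = 0.443) and with median centring, robust variances or array weights (limma adjusted p = 0.0588 to 0.0882).

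**Figure D2:**
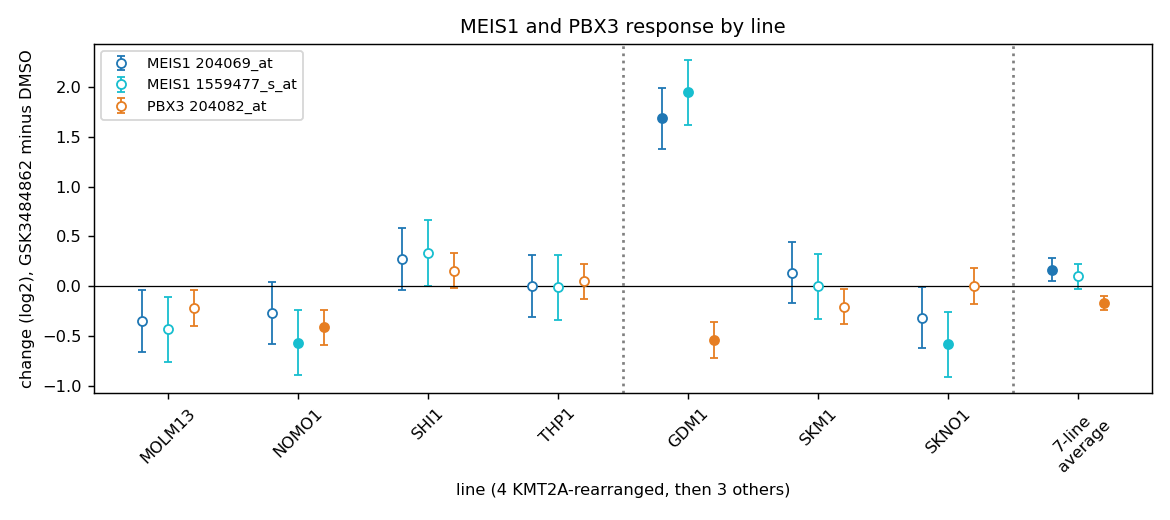
Change (log2, GSK3484862 minus DMSO) of the 3 probe sets in each line and averaged over the 7 lines, with 95% intervals of the limma fit; filled points had an adjusted p under 0.05. MEIS1 in GDM1 stood apart at 1.68 and 1.95, and PBX3 lay lowest in GDM1 and NOMO1.

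The changes differed between lines for all 3 probe sets, as did those of 25.2% of probe sets overall. The moderated F-test of the differences gave an adjusted p of 2.06e-05 for the first MEIS1 probe set, 3.46e-06 for the second and 0.00240 for PBX3 (limma). Averaged over the lines, PBX3 fell by 0.17 ± 0.032 (SE, 1.12-fold lower, adjusted p = 0.000447), lower in 4 of the 7 lines, with 24.2% of all probe sets called lower. The first MEIS1 probe set rose by 0.17 ± 0.055 (1.12-fold, adjusted p = 0.0228), with 18.4% called higher, and the second gave 0.098 ± 0.058 (adjusted p = 0.194; SE, limma). GDM1 decided the sign of the MEIS1 averages: without it they were -0.088 (adjusted p = 0.277) and -0.21 (adjusted p = 0.0236, limma), and the PBX3 average was -0.11 (adjusted p = 0.0232). The call on the first MEIS1 probe set was lost without SHI1 (adjusted p = 0.0756), and its average was 0.25 without MOLM13. The second was called without MOLM13, NOMO1 or SKNO1 (0.19 to 0.21, limma adjusted p = 0.0015 to 0.0358). With lines as units, neither the MEIS1 nor the PBX3 average was called (limma adjusted p = 0.657 for the first MEIS1 probe set and 0.256 for PBX3). Of all 27306 probe sets, 870 had their average called with lines as units, against 11643 with the spread between duplicates. The averages of the listed genes below use the spread between duplicates, and their outcome with lines as units is not given.

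Response was also set between the line classes. The first MEIS1 probe set changed by -0.087 ± 0.28 in KMT2A-rearranged lines and 0.50 ± 1.05 in the others, and the second by -0.17 ± 0.41 in KMT2A-rearranged lines and 0.45 ± 1.32 in the others (SD over 4 and 3 lines). PBX3 changed by -0.11 ± 0.26 in KMT2A-rearranged lines and -0.25 ± 0.27 in the others. The differences of -0.59 ± 0.45, -0.62 ± 0.57 and 0.14 ± 0.19 (SE) were not called (limma adjusted p = 0.998 for each; exact two-sided permutation p = 0.457, 0.629 and 0.514). This comparison called 0% of all probe sets higher and 0% lower (limma), and 3.80% had an unadjusted p under 0.05. Without GDM1 the differences were 0.0029, 0.12 and -0.0032, and without SKNO1 -0.998, -1.14 and 0.27 in the same order, with none called.

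The HOXA cluster itself was seen through its antisense and terminal non-coding RNAs. HOTTIP, transcribed from the 5′ end of the cluster and known to bring the WDR5 and KMT2A complex to it, was low, with 12 of 28 arrays at a repeated value of 3.63. In GDM1 it had 5.65 and 5.83 in GSK3484862 arrays and 4.35 and 3.63 in DMSO arrays, above both controls. The change was 1.75 ± 0.57 (SE, limma adjusted p = 0.0313), and its change in the other lines ran from -0.35 in THP1 to 0.81 in SHI1 with no call. The HOTTIP changes were not called as different between lines (F-test, limma adjusted p = 0.390). The SHI1 DMSO arrays had 5.86 and 3.63, the first above both treated GDM1 arrays. HOXA11-AS, antisense to HOXA11, was highest in THP1, NOMO1, MOLM13 and SKM1 and was called in no line in the fit without a replicate block. In SKM1 its brighter probe set had 6.96 and 8.14 in GSK3484862 arrays and 6.12 and 7.28 in DMSO arrays, a change of 0.84 (limma adjusted p = 0.274). The dimmer one had 4.25 and 6.03 in GSK3484862 arrays and 3.08 and 4.92 in DMSO arrays, a change of 1.14 (limma adjusted p = 0.146). Treated and control arrays overlapped on both, but within each replicate number the treated array was higher. With a replicate block within each line, chosen after the data were seen, the dimmer was called in SKM1 and the brighter was not. The brighter HOXA11-AS probe set averaged 7.08 ± 0.63 in KMT2A-rearranged lines and 5.17 ± 1.51 in the others under DMSO (SD over 4 and 3 lines), which was not called. Of 13 further HOXA cluster genes listed, only these 2 had a probe set annotated to them alone, and neither average was called. Another probe set, annotated to 2 non-coding genes of the cluster together, names neither of them here. Its changes ran from -0.68 in GDM1 to 0.80 in SKM1 and none was called (limma adjusted p = 0.359 and 0.291 for those 2).

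Outside the HOXA cluster, part of the HOXB cluster moved, mainly in SKM1. Of 31 HOXB, HOXC and HOXD genes listed 9 were measured, all in HOXB or HOXC and none in HOXD. On average 6 were called higher and none lower, against 22.2% and 27.0% of all 11676 genes. Their median change was 0.15, against -0.017 over all genes. In SKM1 alone 5 of 9 were called higher, all in the HOXB cluster, against 12.7% of genes. HOXB6 had 8.40 and 9.02 in GSK3484862 arrays and 6.35 and 7.20 in DMSO arrays of SKM1, a change of 1.93 ± 0.21 (SE, limma adjusted p = 7.52e-06). HOXB7 had 8.52 and 9.15 in GSK3484862 arrays and 6.07 and 7.24 in DMSO arrays, a change of 2.18 ± 0.28 (SE, limma adjusted p = 4.43e-05). All 3 HOXB7 probe sets were called higher. Without SKM1 the mean change over lines was 0.037 for HOXB7, 0.00065 for HOXB6, 0.051 for HOXB5 and 0.091 for HOXB2, against 0.34, 0.28, 0.27 and 0.31 with it. HOXB5 had 5.15 and 6.42 in GSK3484862 arrays and 4.20 on both DMSO arrays, and HOXB2 5.01 and 4.37 in GSK3484862 arrays and 3.10 on both DMSO arrays. Treated arrays lay above the controls for each of these genes, and the controls of HOXB5 and HOXB2 were at repeated lowest values. HOXB3, by contrast, had 7.49 and 7.53 in GSK3484862 arrays and 7.50 and 7.60 in DMSO arrays of SKM1. HOXC4 changed by -0.0020 in SKM1, and HOXC6 had a mean of 2.43 there with and without treatment. HOXB6 and HOXB7 were also high in SHI1, where HOXB7 had 10.59 and 10.43 in GSK3484862 arrays and 10.81 and 10.59 in DMSO arrays, and stood at or near the lowest values in the remaining lines. HOXB genes encode transcription factors of the same family as HOXA, several of them active in early blood progenitors.

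Of 6 other TALE genes measured of 10 listed, 3 were called higher on average and 2 lower, against 22.2% and 27.0% of all genes. MEIS2, a paralog of MEIS1, had 7.51 and 7.78 in GSK3484862 arrays and 5.52 on both DMSO arrays of MOLM13, a change of 2.12 ± 0.23 (SE, limma adjusted p = 6.03e-06), and its mean change was 0.16 without MOLM13, against 0.44 with it. Both DMSO values were identical, as the repeated values of other probe sets were, and the size of that change rests on them. Its DMSO signal was highest in SKNO1 and SKM1, where MEIS1 stood at its lowest values, with 11.55 and 11.41 in SKNO1 and 10.94 and 11.19 in SKM1. The levels of the paralogs did not mirror each other in all lines: SHI1, with high MEIS1, had MEIS2 at 9.16 and 9.13, above THP1 at 8.63 and 8.73, where MEIS1 was at its lowest values. GDM1, with high MEIS1, had MEIS2 at 2.13 on both DMSO arrays and at 2.13 and 2.95 on GSK3484862 arrays. TGIF2, a TALE repressor in TGF-beta signalling, fell by 0.34 ± 0.040 on average and PBX2 by 0.25 ± 0.060, while PBXIP1, which encodes a PBX-binding inhibitor, rose by 0.28 ± 0.081 (SE, limma adjusted p = 4.25e-06, 0.00278 and 0.0102).

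**Figure D3:**
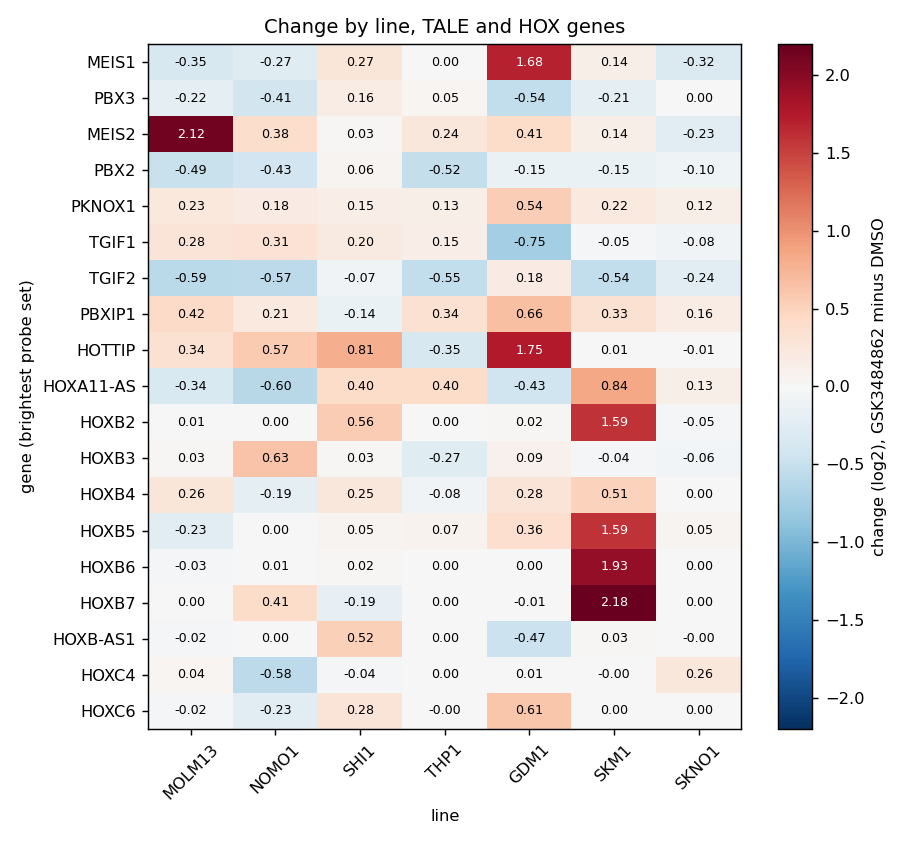
Change (log2, GSK3484862 minus DMSO) of TALE and HOX genes, brightest probe set of each gene, in rows against the 7 lines in columns; red is higher and blue lower in treated arrays. Single cells stand out: MEIS1 in GDM1, MEIS2 in MOLM13 and HOXB2, HOXB5, HOXB6 and HOXB7 in SKM1. HOTTIP in GDM1 does too, but its F-test of differences between lines was not called (limma adjusted p = 0.390).

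Of 34 genes measured of 35 listed that act with KMT2A and DOT1L, 5 were called higher and 10 lower on average, against 22.2% and 27.0% of all genes, with a median of -0.055. MEN1, which encodes menin, the tether of KMT2A and its fusions to chromatin, fell by 0.38 ± 0.030 (SE, limma adjusted p = 7.00e-08) and was called lower in 6 lines, SHI1 being the exception at -0.089. ELL2, an elongation factor, rose by 0.48 ± 0.096, AFDN, the fusion partner in SHI1, by 0.31 ± 0.075 and MLLT10, a DOT1L partner, by 0.19 ± 0.046 (SE, limma adjusted p = 0.000708, 0.00301 and 0.00290). For MLLT10 4 of 6 probe sets had that sign. Without the line that changed most, the mean was 0.32 for ELL2 (MOLM13) and 0.21 for AFDN (SKNO1).

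Of 22 Polycomb genes measured of 26 listed, whose products silence HOX loci, 2 were called higher and 9 lower on average, against 22.2% and 27.0% of all genes, with a median of -0.081. CBX7, a chromodomain subunit of the first Polycomb complex, rose by 0.31 ± 0.077, and PCGF2 by 0.24 ± 0.069 with the same sign on 2 of 4 probe sets and a mean of 0.13 without THP1. PHF19, an accessory subunit of the second complex, fell by 0.31 ± 0.043 with the same sign on 2 of 3 probe sets and EED, a core subunit, by 0.23 ± 0.035 (SE, limma adjusted p = 0.00371, 0.0106, 2.69e-05 and 6.48e-05 in the order given).

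Of 29 described targets of KMT2A fusions or of HOXA9 with MEIS1 measured of 31 listed, 11 were called higher and 9 lower on average, against 22.2% and 27.0% of all genes, with a median of 0.064. FLT3, a receptor kinase gene and a described target of HOXA9 with MEIS1 in mouse cells, fell by 0.87 ± 0.093 (SE, limma adjusted p = 1.68e-06), most in SKM1 (-2.77) and NOMO1 (-1.82), with a mean of -0.55 without SKM1. In GDM1, where MEIS1 rose, FLT3 stood near its lowest values with a DMSO mean of 2.87 and a change of 0.0019. MYC, the growth regulator, fell by 0.49 ± 0.040 and was called lower in 6 lines. IGF1R, a growth factor receptor, rose by 0.53 ± 0.072 and IKZF2, an Ikaros family factor, by 0.48 ± 0.13 (SE, limma adjusted p = 9.43e-08 for MYC, 2.12e-05 and 0.00585). Without SHI1 the IKZF2 mean was 0.29. For 18 of the 29 genes the change differed between lines, against 32.0% of all genes. In GDM1 4 were called higher and 5 lower, against 12.3% and 19.0% of all genes, and in SKM1 11 higher and 5 lower, against 12.7% and 12.3%.

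**Figure D4:**
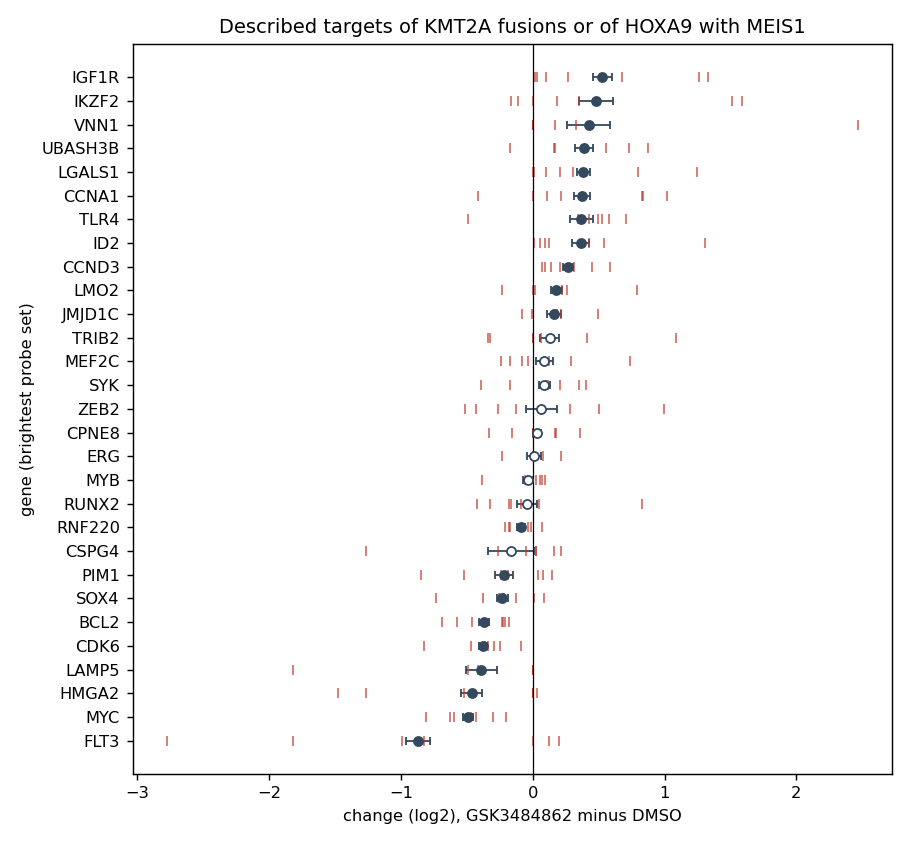
Average change (log2, GSK3484862 minus DMSO) of 29 described target genes, with standard error, filled where the adjusted p was under 0.05; red ticks are the 7 lines. IGF1R at 0.53 and FLT3 at -0.87 mark the ends, and the lines spread widely around most averages.

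No gene of these lists was called in its DMSO level or its response between the line classes. CPNE8 and LAMP5, described KMT2A fusion targets, were chosen after their values were seen. CPNE8 averaged 9.29, 10.59, 9.74 and 9.23 in MOLM13, THP1, NOMO1 and SHI1 and 2.23, 8.33 and 2.23 in GDM1, SKM1 and SKNO1 under DMSO, a difference of 5.44 ± 1.51 (SE). Its limma p was 0.00907 unadjusted and 0.733 adjusted. Like PBX3 it was higher in each KMT2A-rearranged line than in each other line, an order shown by 3.15% of all probe sets. As CPNE8 was chosen on its values, neither this order nor its unadjusted p is a test of the line classes. LAMP5 was at 13.95 in MOLM13, 11.75 in THP1 and 4.61 in NOMO1 and at the lowest value of 2.13 in SHI1 and the 3 other lines.

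The genes whose DMSO line means ran most like MEIS1 and PBX3 were sought among 4817 genes that spanned at least 2 log2 units, over 7 points each that share the same arrays. For MEIS1, taken on its first probe set, they were the signalling adaptor gene HSH2D (r = 0.954, rho = 0.750), the scaffold gene NEDD9 (r = 0.920, rho = 0.786) and WRAP53 (r = 0.913, rho = 0.714). Each of them was higher in every line with high MEIS1 than in THP1, SKM1 and SKNO1. The rho values also rank those last lines, whose lowest MEIS1 values have no order among themselves. For PBX3 they were THBD, which encodes thrombomodulin (r = 0.976, rho = 0.857), CYTH4 (r = 0.972, rho = 0.857) and TMEM259 (r = 0.970, rho = 0.893). In SKNO1, where PBX3 stood at its lowest value, these genes had DMSO means of 4.21, 3.82 and 2.88. In every other line they had at least 9.06, 7.41 and 9.29. The r values for PBX3 thus rest largely on SKNO1, and r without that line was not computed. In GDM1 HSH2D changed by -0.39, NEDD9 by 0.35 and WRAP53 by -0.80, beside the MEIS1 rise of 1.68. HSH2D rose by 1.12 in SKM1, 2.16 in THP1 and 2.33 in SKNO1, where MEIS1 stayed at its lowest values. In MOLM13, NOMO1 and SHI1 it changed by -0.38, 0.066 and -0.35. THBD changed by -0.57 in GDM1 and -0.34 in NOMO1, CYTH4 by 0.46 in GDM1 and 0.095 in NOMO1, and TMEM259 by 0.27 in GDM1 and -0.12 in NOMO1, beside PBX3 changes of -0.54 in GDM1 and -0.41 in NOMO1.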

How the data were processed

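The authors deposited 1 table of log2 probe set signals with 27306 probe sets and 28 array columns. How background was corrected and probes were summarised and normalized is not given in the sources used here. The submitters' processing notes name limma without a version. Lines, treatments and replicate numbers came from the sample labels, and values were used as deposited. Gene names came from the platform annotation: 22580 probe sets had 1 symbol, 1098 several and 3628 none, and identifiers changed 0 symbols. For gene lists the brightest probe set by mean over all arrays stood for the gene, which left 11676 genes.

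Responses went through limma 3.58.1 (R 4.3.3) in 1 fit of 14 groups (14 residual and 2.37 prior degrees of freedom), and line classes on 7 line means (5 residual, 1.79 prior). P-values were two-sided and Benjamini-Hochberg adjusted over all probe sets. The script was tested on simulated data. The members and lists were chosen with earlier results of these data known. Named genes of each list were up to 4 called with the largest average change and up to 2 called between line classes, and the likeness search for the HOXA genes was not made. Alternatives were other normalization, filters, summaries and weights, replicate blocks, units, and left-out replicates or lines. Lists were described by counts and medians, with no set test.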

Additional observations from a re-analysis of the deposited data

Results flagged for a closer look

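MEIS1 in GDM1 lay far from the other 6 lines in its response, at 1.95 on the second probe set and 1.68 on the first, by Dixon's criterion for a single distant value. THP1 lay far below the other 3 KMT2A-rearranged lines in its DMSO level of MEIS1, at 2.15 and 2.13 on the second and the first. SKNO1 lay far below the other 6 lines in its DMSO level of PBX3, at 2.80. By chance this criterion marks about 5% of groups. The response differed between lines by the moderated F-test of limma, with adjusted p-values of 3.46e-06 and 2.06e-05 for the second and the first MEIS1 probe set and 0.00240 for PBX3.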

How the results depend on the processing

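Quantile normalization, centring, a filter on low values, other summaries per gene, trend and robust variance options and array weights changed no call of an average, of the F-test or of a class difference, and gave 4 to 8 calls within lines against 6. With lines as units the averages were 0.17 (the first MEIS1 probe set) and -0.17 (PBX3) with 0 called. With arrays as units in place of lines, all 3 probe sets were called in the DMSO comparison (2.88 and 3.14 for the second and the first MEIS1 probe set, 4.22 for PBX3), and both MEIS1 probe sets, 2, in the class response (-0.62 and -0.59). Leaving out replicate 1 or 2, with the line as a block, gave averages of 0.14 to 0.19 for the first MEIS1 probe set and -0.18 to -0.15 for PBX3, with 0 called. Leaving out each line in turn gave averages of -0.21 to 0.21 for the second MEIS1 probe set, -0.088 to 0.25 for the first and -0.22 to -0.11 for PBX3, with both MEIS1 averages negative only without GDM1. The second was called at -0.21 without GDM1, and at 0.19, 0.21 and 0.21 without MOLM13, SKNO1 and NOMO1, and the first was not called at -0.088 without GDM1 or at 0.15 without SHI1, where 1 average was called. Without GDM1 the class responses were 0.12 (second MEIS1 probe set), 0.0029 (first) and -0.0032 (PBX3), and over left-out lines they ran from -1.14 to 0.12, -0.998 to 0.0029 and -0.0032 to 0.27. Each line fitted on its own 4 arrays left 2 of 6 calls, both MEIS1 in GDM1. With lines that had signal only, chosen after seeing the data, the second MEIS1 average was called at 0.32. Replicate numbers were not taken as pairing the samples: deviations of same-numbered arrays correlated at -0.117 to 0.314, over 0.1 in 3 of 7 lines (SKM1, SKNO1 and NOMO1), and the replicate block gave 2 called averages (adjusted p = 0.0275 for the first MEIS1 probe set, limma), 6 line calls and 3 F-test calls, the same counts as without it. A replicate block within each line, chosen after seeing the data, kept 2 averages and 3 F-test calls and gave 4 line calls, without the second MEIS1 probe set in NOMO1 (adjusted p = 0.0553) and SKNO1 (0.0732), and it called the dimmer HOXA11-AS probe set in SKM1 (1.14, adjusted p = 0.00666, limma) but not the brighter (0.129).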
